A study of Mus musculus with 25 samples.

Results

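Fatty acid synthesis, elongation and desaturation in the sciatic nerve were described through 10 mouse enzymes, Acly, Acaca, Fasn, Me1, Scd1, Scd2, Elovl1, Elovl6, Fads1 and Fads2. They were taken by name and not by a threshold on their values, though with earlier results of these data known. They were matched by symbol to the Ensembl identifiers of the count table. All 10 were found among the 56956 genes of the table, and all 10 were among the 13993 genes that passed the filter on low counts. On chromosome 11 lie Acly (ENSMUSG00000020917, chr11:100367165-100440756, minus strand), Acaca (ENSMUSG00000020532, chr11:84020476-84292477, plus strand) and Fasn (ENSMUSG00000025153, chr11:120696672-120715995, minus strand). On chromosome 19 lie Scd1 (ENSMUSG00000037071, chr19:44382894-44399154, minus strand), Scd2 (ENSMUSG00000025203, chr19:44281613-44295303, plus strand), Fads1 (ENSMUSG00000010663, chr19:10160167-10174241, plus strand) and Fads2 (ENSMUSG00000024665, chr19:10038130-10079203, minus strand). The others are Me1 (ENSMUSG00000032418, chr9:86462646-86578104, minus strand), Elovl1 (ENSMUSG00000006390, chr4:118284346-118290150, plus strand) and Elovl6 (ENSMUSG00000041220, chr3:129326004-129432144, plus strand). The positions are whole genes, exons and introns together, on the GRCm39 build.

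RNA of whole sciatic nerve was sequenced to follow the CMT1A mouse models C3 and C22 over their development. The 25 libraries cover 5 groups at ages of 3, 5, 7, 9 and 12 weeks, 1 library at each age. C3 mice (B6.Cg-Tg(PMP22)C3Fbas/J) and their controls WT-C3 (C57BL/6J) share a C57BL/6J background, and C22 mice (Tg(PMP22)C22Clh) were set beside FVB/NRJ controls, WT-C22. Both models carry added human PMP22, with more copies in C22 than in C3, so copy number and strain cannot be told apart between the models. The group C3-cJunKO (C3-PMP22 c-JunP0Cre) carries the C3 transgene and lacks c-Jun in Schwann cells, where Cre is expressed. Its strain background and transgene copy number are not given in the labels, and the set holds no C3 group with Cre and intact c-Jun. Differences of these kinds cannot be told apart from the loss of c-Jun. The mice were untreated, males and females were pooled at 4 to 5 animals per library, and a single batch is named for the whole set. Without a repeat pool at any age, the libraries of the 5 ages were taken as the replicates of each group (n = 5), SDs and standard errors (SE) include change with age, and p-values measure only the spread between these libraries.

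The pathway starts in the cytosol, where Acly cleaves citrate to acetyl-CoA and Acaca carboxylates it to malonyl-CoA. Fasn then builds palmitate, with NADPH that Me1 helps to supply. Elovl6 lengthens palmitate towards stearate, Scd1 and Scd2 place a double bond in these chains to give oleate and palmitoleate, Elovl1 makes the very long chains found in sphingolipids, and Fads1 and Fads2 desaturate the essential fatty acids to the long polyunsaturated ones. Myelinating Schwann cells make much of the lipid of their own membrane, and SREBP factors, held back by Insig1, drive many of these genes.

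RefSeq promoters of 300 bases, 250 before and 50 after the start, were found for 7 of the 10 genes (Acly, Acaca, Fasn, Me1, Elovl1, Elovl6 and Fads2), with 2 starts each for Me1 and Elovl1. Scd1, Scd2 and Fads1 had no entry. The 4 promoters shown are those of the genes on which the comparisons turn, Elovl6 and Fads2, which fell in both models, Me1, which was higher in C3-cJunKO than in C3, and Fasn, which varied widely between libraries. They are written 5′ to 3′ on the strand of the gene, on GRCm38.p6 and not on the build of the counts, at chr3:129532136-129532435 (plus strand, Elovl6), chr19:10101454-10101753 (minus strand, Fads2), chr9:86695865-86696164 (minus strand, Me1) and chr11:120824498-120824797 (minus strand, Fasn). Capitals mark matches, on either strand, to the motifs named after them.
Elovl6: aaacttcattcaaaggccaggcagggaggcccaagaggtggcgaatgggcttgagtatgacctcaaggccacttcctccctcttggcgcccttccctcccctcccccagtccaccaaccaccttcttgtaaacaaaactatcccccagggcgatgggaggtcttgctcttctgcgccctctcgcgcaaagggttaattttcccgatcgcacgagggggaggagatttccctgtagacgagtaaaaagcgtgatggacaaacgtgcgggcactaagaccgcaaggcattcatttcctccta
Fads2: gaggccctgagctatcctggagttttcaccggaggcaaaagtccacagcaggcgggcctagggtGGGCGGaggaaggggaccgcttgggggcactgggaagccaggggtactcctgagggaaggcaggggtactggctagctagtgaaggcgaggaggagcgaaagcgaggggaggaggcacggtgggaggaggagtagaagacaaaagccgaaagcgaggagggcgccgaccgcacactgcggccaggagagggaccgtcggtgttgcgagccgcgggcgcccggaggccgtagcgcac
Me1: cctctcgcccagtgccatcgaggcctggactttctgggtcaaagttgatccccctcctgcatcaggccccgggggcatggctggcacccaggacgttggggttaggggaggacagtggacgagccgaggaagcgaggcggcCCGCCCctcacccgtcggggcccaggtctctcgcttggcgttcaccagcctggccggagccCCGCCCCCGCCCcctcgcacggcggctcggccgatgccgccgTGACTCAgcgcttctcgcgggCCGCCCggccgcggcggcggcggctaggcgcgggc
Fasn: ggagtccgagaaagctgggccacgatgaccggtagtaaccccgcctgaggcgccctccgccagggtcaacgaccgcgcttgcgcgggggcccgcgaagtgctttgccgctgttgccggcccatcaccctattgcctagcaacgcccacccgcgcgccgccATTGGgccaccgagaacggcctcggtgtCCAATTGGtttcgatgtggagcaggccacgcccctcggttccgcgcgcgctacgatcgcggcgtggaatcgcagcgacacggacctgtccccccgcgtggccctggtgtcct

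The motifs searched on both strands were the core of a sterol regulatory element (TCACNCCAC), the E-box (CACGTG), the box named CCAAT for its letters, the GC box (GGGCGG) and the AP-1 site (TGANTCA). Of all 32851 RefSeq mouse promoters of this length, 1.24% held the sterol element core, 7.15% the E-box, 37.4% the CCAAT box, 35.7% the GC box and 7.81% the AP-1 site. In the promoters of the 7 genes the sterol element core and the E-box had 0 matches, the CCAAT box was found for 4 genes, the GC box for 4 and the AP-1 site for 1. The Me1 promoter holds 4 GC boxes on the reverse strand, written CCGCCC, and an AP-1 match, TGACTCA, that starts 6 bases before the transcription start. The Fasn promoter holds 3 CCAAT boxes, of which a pair on opposite strands overlaps as CCAATTGG. The Fads2 promoter holds 1 GC box, and those of Elovl6 and Acaca hold 0 of these motifs. Letters missing from such a window say nothing on the factor that reads them.

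Depth ran from 2140142 counts on genes, in the C3 library of 9 weeks, to 49072746, with a median of 24663235. Human PMP22, which checks the labels, ran from 7874 to 16297 CPM (counts scaled to a common library total, with TMM factors) in the 15 libraries of C3, C22 and C3-cJunKO and from 0.0395 to 6.30 CPM in the 10 control libraries. Its mean was no higher in C22 (12078 ± 1536 CPM, SD, n = 5) than in C3 (12550 ± 1850 CPM), despite the larger copy number. Mouse Pmp22 ran from 17064 to 28680 CPM in WT-C3 and from 8345 to 11507 CPM in C3. In WT-C22 it ran from 13894 to 32959 CPM and in C22 from 3717 to 4778 CPM. Jun ran from 26.4 to 31.7 CPM in C3-cJunKO and from 95.1 to 118 CPM in C3. The summed level of 12 markers of myelinating Schwann cells, such as Mbp and Prx, was at least 27601 CPM in every library. Together the 10 enzymes took 1.17% ± 0.260 (SD, n = 5) of all counts in WT-C3, 0.762% ± 0.0400 in C3, 1.65% ± 0.753 in WT-C22, 1.15% ± 0.581 in C22 and 1.17% ± 0.271 in C3-cJunKO.

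**Figure D1:**
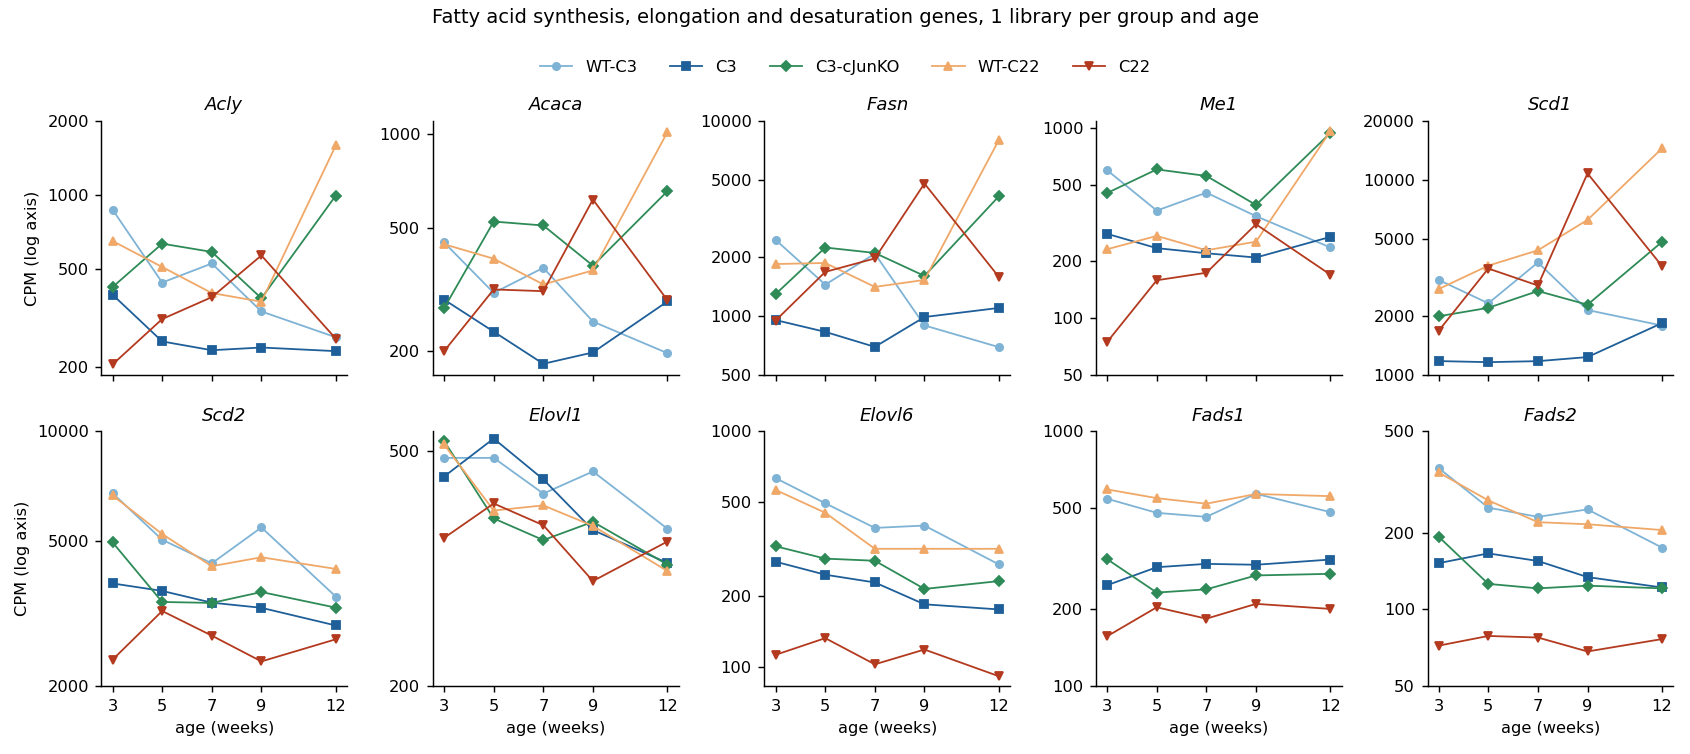
Each panel plots 1 enzyme, with age in weeks on the horizontal axis and CPM on a log axis, and 1 line for each of the 5 groups, each point being 1 library. Fads1 runs flat at 462 to 592 CPM in both controls and lower in both models, whereas Fasn and Scd1 reach 7967 and 14418 CPM in the WT-C22 library of 12 weeks and 4772 and 10756 CPM in the C22 library of 9 weeks.

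In C3, 7 of the 10 enzymes were lower than in WT-C3 and 0 were higher (adjusted p under 0.05 by edgeR, which compared the TMM-scaled counts of the 5 libraries of each group). Of all genes tested, 11.4% were lower and 12.5% higher. At an unadjusted p under 0.05, 8 enzymes were lower and 0 higher, beside 5196 of all 13993 genes in either direction. DESeq2 also called 7 enzymes, beside 3872 of 13989 genes. The enzymes had a median log2 fold change of -0.78, where that of all genes was 0.00. The 7 were Scd1, Elovl6, Acly, Fads1, Fads2, Me1 and Scd2, so genes of synthesis, desaturation and elongation were all among them. In whole nerve, fewer cells of a type and less RNA per cell cannot be told apart.

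Of the synthesis enzymes, Acly, which makes cytosolic acetyl-CoA, stood at 869, 439, 525, 335 and 263 CPM in WT-C3 from the youngest to the oldest age. In C3 it stood at 392, 253, 233, 239 and 231 CPM. It was lower in C3 at all 5 ages, by log2 ratios of -1.17 at 7 weeks to -0.19 at 12 weeks, and the groups overlapped through the C3 library of 3 weeks, at 392 CPM. The fall was 1.83-fold (log2 fold change -0.87, SE 0.28, adjusted p = 0.0416). It was called only when no library, or the C3 library of 3 weeks or the WT-C3 library of 9 or 12 weeks, was left out. Leaving out any other library gave an Acly adjusted p of 0.0598 to 0.0906, and without the WT-C3 library of 3 weeks the log2 fold change of Acly was -0.56. In 1 fit of all 25 libraries, which pools the spread of the groups, the calls of Acly (adjusted p = 0.0815), Me1 (adjusted p = 0.133) and Scd1 (adjusted p = 0.0749) in C3 were lost.

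Me1, the cytosolic malic enzyme that yields NADPH, stood at 598, 367, 456, 343 and 235 CPM in WT-C3 and at 277, 233, 219, 208 and 267 CPM in C3. The difference closed at 12 weeks, the only age at which C3 was not the lower. The fall of Me1 was 1.68-fold (log2 fold change -0.75, SE 0.20, adjusted p = 0.0194). Fasn, the synthase itself, stood at 2461, 1453, 2091, 899.7 and 697 CPM in WT-C3 and at 958, 834, 699, 993 and 1105 CPM in C3. Fasn was lower in C3 at 3, 5 and 7 weeks and higher at 9 and 12 weeks, and it was not called (log2 fold change -0.74, 95% interval -1.34 to -0.15 from the SE, adjusted p = 0.0957). Without the WT-C3 library of 12 weeks the fold change of Fasn was -0.93 (adjusted p = 0.0291). Acaca, which makes malonyl-CoA, was lower at 4 of 5 ages and was not called either (log2 fold change -0.42, interval -0.83 to 0.00, adjusted p = 0.173).

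Scd1 and Scd2 are desaturases that form monounsaturated fatty acids. Scd1 stood at 3073, 2334, 3773, 2156 and 1797 CPM in WT-C3 and at 1183, 1168, 1182, 1240 and 1848 CPM in C3. The groups met only at 12 weeks, when C3 reached the level of its control. Scd1 fell 2.01-fold (interval on the log2 scale -1.42 to -0.59, SE 0.21, adjusted p = 0.00592). Scd2 stood at 6768, 5043, 4345, 5451 and 3522 CPM in WT-C3 and at 3827, 3650, 3389, 3281 and 2934 CPM in C3, lower in C3 at each age although the groups overlapped. Its fall was 1.49-fold (log2 fold change -0.58, SE 0.16, adjusted p = 0.0200).

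The polyunsaturated desaturases separated the groups fully. Fads1 stood at 544, 479, 462, 569 and 482 CPM in WT-C3 and at 249, 293, 302, 299.6 and 314 CPM in C3. Every C3 library lay below every WT-C3 library, and the highest library was 1.23 times the lowest in WT-C3 and 1.26 times in C3. Fads1 fell 1.76-fold (log2 fold change -0.82, SE 0.09, adjusted p = 1.8e-04). Fads2 stood at 359, 251, 231, 247 and 175 CPM in WT-C3 and at 152, 166, 155, 134 and 122 CPM in C3, again without overlap, and fell 1.75-fold (log2 fold change -0.81, SE 0.16, adjusted p = 0.00394).

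The elongases differed from each other. Elovl6 stood at 634, 496, 390, 399 and 273 CPM in WT-C3 and at 280.4, 247, 229, 185 and 176 CPM in C3. It declined with age in WT-C3 and lay lower in C3 at each age, by a log2 ratio of -1.18 to -0.63, although the youngest C3 library overlapped the oldest WT-C3 library. Elovl6 fell 1.99-fold (log2 fold change -0.99, SE 0.20, adjusted p = 0.00458). Elovl1, which makes very long chains, ran from 369 to 486 CPM in WT-C3 and from 323 to 524 CPM in C3, with a log2 fold change of -0.10 (interval -0.34 to 0.14, adjusted p = 0.596).

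In C22, 4 of the 10 enzymes were lower than in WT-C22, Elovl6, Fads2, Fads1 and Scd2, and 0 were higher, where 20.5% of all genes were lower and 21.9% higher. At an unadjusted p under 0.05, 6 enzymes were lower and 0 higher, beside 7041 of all 13993 genes in either direction. DESeq2 called 5 enzymes, beside 6230 of 13932 genes, so these counts lie near the shares of all genes. The median log2 fold change of the 10 was -0.99, against 0.00 over all genes. The 4 are an elongase, a stearoyl-CoA desaturase and both polyunsaturated desaturases, and the libraries of the groups did not overlap for any of the 4.

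Elovl6 stood at 565, 452, 318, 318 and 318 CPM in WT-C22 and at 113, 133, 103, 119 and 91.7 CPM in C22. The lowest control libraries, at 318 CPM, lay far above the highest C22 library, at 133 CPM. Elovl6 fell 3.61-fold (log2 fold change -1.85, SE 0.18, adjusted p = 1.3e-05), the largest fall of the 10 in C22. Fads2 stood at 345, 268, 220.1, 216 and 205 CPM in WT-C22 and at 72.1, 78.7, 77.6, 68.4 and 76.5 CPM in C22. While the controls declined after 3 weeks, Fads2 in C22 kept to 74.6 ± 4.28 CPM (SD, n = 5). The fall of Fads2 was 3.44-fold (log2 fold change -1.78, SE 0.14, adjusted p = 2.0e-06).

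Fads1 stood at 592, 547, 520.2, 568 and 557 CPM in WT-C22, where the highest library was 1.14 times the lowest, and at 157, 204, 184, 210.4 and 201 CPM in C22. It fell 2.98-fold (log2 fold change -1.58, SE 0.09, adjusted p = 1.9e-07). Scd2 stood at 6676, 5228, 4267, 4515 and 4194 CPM in WT-C22 and at 2364, 3215, 2752, 2338 and 2689 CPM in C22. The gap in Scd2 was widest at 3 weeks, with a log2 ratio of -1.50, and narrowest at 7 weeks. Scd2 fell 1.91-fold (log2 fold change -0.93, SE 0.16, adjusted p = 6.2e-04).

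The other 6 enzymes were not called in C22, and for 5 of them the same pair of libraries held the highest values of their groups. Fasn stood at 1852, 1875, 1415, 1536 and 7967 CPM in WT-C22 and at 953, 1688, 1978, 4772 and 1591 CPM in C22. Scd1 stood at 2760, 3634, 4354, 6224 and 14418 CPM in WT-C22 and at 1689, 3513, 2878, 10756 and 3620 CPM in C22. The WT-C22 library of 12 weeks and the C22 library of 9 weeks were the highest of their groups for Acly, Acaca, Fasn, Me1 and Scd1. They are called the outlying libraries below, although by the rule given later for single values both stood apart only for Acaca and Fasn. Fasn had a log2 fold change of -0.44 (interval -1.51 to 0.63, adjusted p = 0.542) and Scd1 one of -0.51 (interval -1.55 to 0.54, adjusted p = 0.467). Without the WT-C22 library of 12 weeks both were on the other side of 0, at 0.36 for Fasn (adjusted p = 0.486) and 0.06 for Scd1 (adjusted p = 0.934), and without the C22 library of 9 weeks they were -0.94 (adjusted p = 0.160) and -1.12 (adjusted p = 0.0674). Elovl1, the sixth, ran from 313 to 512 CPM in WT-C22 and from 301 to 407 CPM in C22 (log2 fold change -0.19, interval -0.44 to 0.05, adjusted p = 0.242).

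Acly stood at 648, 508, 398, 367 and 1586 CPM in WT-C22 and at 204, 312, 383, 566 and 259.5 CPM in C22. Me1 stood at 229.9, 270.2, 227, 252 and 959 CPM in WT-C22 and at 74.9, 158, 173, 311 and 169 CPM in C22. Both were lower in C22 at 4 of 5 ages, with log2 fold changes of -1.05 for Acly (adjusted p = 0.0552) and -1.15 for Me1 (adjusted p = 0.0625). Acaca, also lower at 4 of 5 ages, had a log2 fold change of -0.58 (adjusted p = 0.201). With both outlying libraries left out, an alternative chosen after the data were seen, 7 enzymes were lower in C22, with a median of -0.79, and Acly (-0.77, adjusted p = 0.0186), Acaca (-0.49, adjusted p = 0.0256) and Me1 (-0.81, adjusted p = 0.0175) were added. Without the C22 library of 9 weeks alone the adjusted p was 0.0268 for Acly, 0.0422 for Acaca and 0.0282 for Me1, and without the WT-C22 library of 7 or 9 weeks that of Acly was 0.0452 or 0.0407. Without the WT-C22 library of 12 weeks alone the log2 fold changes were -0.51 for Acly (adjusted p = 0.172), -0.17 for Acaca (adjusted p = 0.640) and -0.50 for Me1 (adjusted p = 0.221).

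Both outlying libraries were also high in markers of fat cells, which express many of the same enzymes. The 15 adipocyte markers, such as Adipoq, Plin1 and Cidec, summed to 4028, 4908, 8483, 9557 and 12155 CPM in WT-C22 from 3 to 12 weeks and to 3554, 4737, 5956, 10728 and 6797 CPM in C22, so that the same 2 libraries were the highest of their groups. Over the other 4 WT-C22 libraries the sums were higher at each later age. Between the first and last of these ages Scd1 went from 2760 to 6224 CPM and Me1 from 229.9 to 252 CPM. Acly went from 648 to 367 CPM, Acaca from 442 to 364 CPM and Fasn from 1852 to 1536 CPM. The sums ran from 2722 to 5408 CPM in WT-C3, from 982 to 5693 CPM in C3 and from 1762 to 8199 CPM in C3-cJunKO, and 0 of the markers were at 0 in any group. Of the 15 markers 0 were called in C3 (median log2 fold change -0.37, 1 lower at an unadjusted p under 0.05, 0 called by DESeq2) and 0 in C22 (median -0.29, 0 at an unadjusted p under 0.05, 0 called by DESeq2). With the mean log2 level of the markers as a covariate, Fads1, Fads2, Elovl6 and Scd2 were again lower in C22, beside Acly (adjusted p = 0.0294), Me1 (-1.01, adjusted p = 0.0220) and Elovl1 (-0.21, adjusted p = 0.0442), 7 enzymes in all. Fat around the nerve and expression in Schwann cells cannot be told apart in these libraries for the enzymes that fat cells share.

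**Figure D2:**
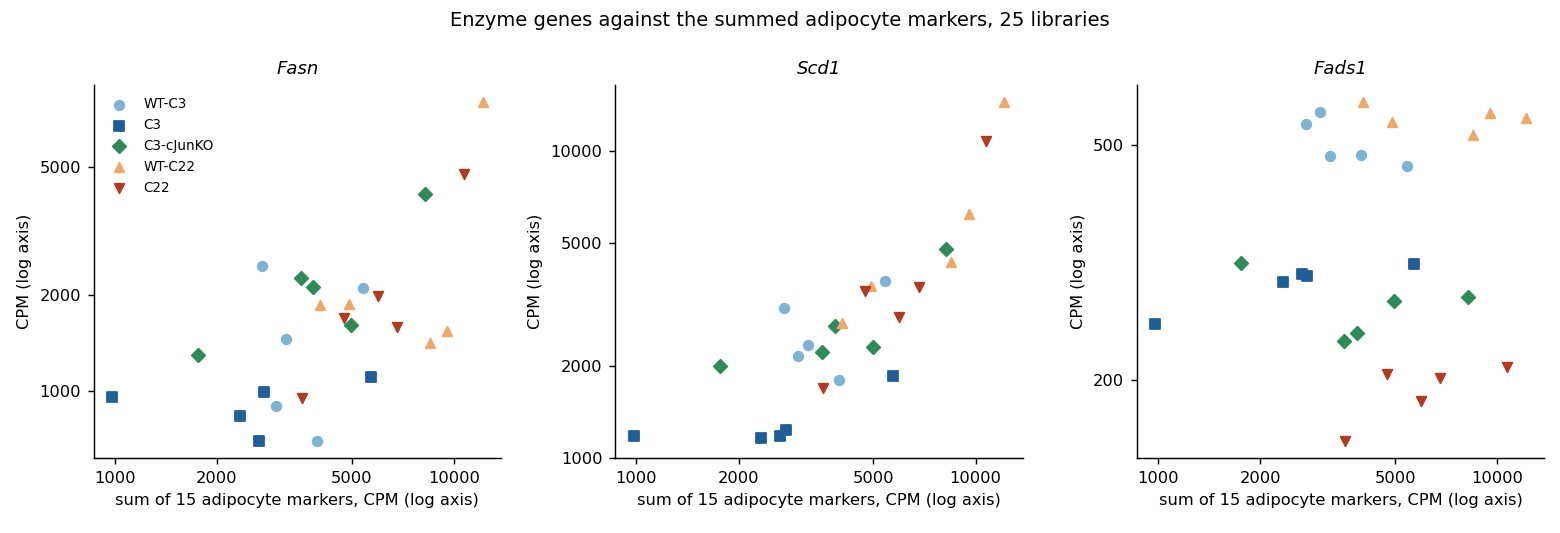
Fasn, Scd1 and Fads1 (vertical axes, CPM, log scale) are plotted against the summed CPM of 15 adipocyte markers (horizontal axes, log scale), 1 point per library, in the colours of the 5 groups. The WT-C22 library of 12 weeks and the C22 library of 9 weeks lie at the top right for Fasn and Scd1, at marker sums of 12155 and 10728 CPM, while Fads1 lies at 520.2 to 592 CPM in WT-C22 across the whole range of marker sums.

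The changes in C22 and C3 were then compared with each other, in 1 fit of their 20 libraries, as the difference between the C22 and the C3 change. The difference was negative, a larger fall in C22, for 3 enzymes, Fads2, Fads1 and Elovl6, and positive for 0, against 7.31% and 4.75% of all genes. At an unadjusted p under 0.05 the counts were 3 and 0 as well, beside 3416 of all 13993 genes in either direction. DESeq2 called 3 enzymes, beside 1992 of 13990 genes. For Fads2 the difference was -0.99 on the log2 scale (SE 0.22, adjusted p = 0.00487) and for Fads1 -0.78 (SE 0.13, adjusted p = 3.2e-04). For Elovl6 it was -0.88 (SE 0.28, adjusted p = 0.0487), near the threshold. The call was lost in 5 of 9 other settings (adjusted p up to 0.0739) and when 14 of the 20 libraries were left out in turn, with an adjusted p of up to 0.108 for Elovl6. It was kept without the C3 library of 9 or 12 weeks, the WT-C3 library of 3 weeks or the WT-C22 library of 7, 9 or 12 weeks.

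For Scd2 the difference between the models was -0.38 (interval -0.82 to 0.06, adjusted p = 0.329). For Elovl1 it was -0.12 (interval -0.47 to 0.24). The remaining 5 had wide intervals, from -1.01 to 1.62 for Fasn and from -0.71 to 1.70 for Scd1, so that differences between the models of these sizes were not detectable. With scaling by library size alone, without TMM, the share of higher genes among all called genes went from 52.1% to 71.4% in C3 and from 51.7% to 76.0% in C22, and the median of all genes moved by 0.08 and 0.17 on the log2 scale. The counts of lower enzymes were 7 in C3 and 4 in C22 under that scaling too, with medians of -0.69 and -0.82.

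**Figure D3:**
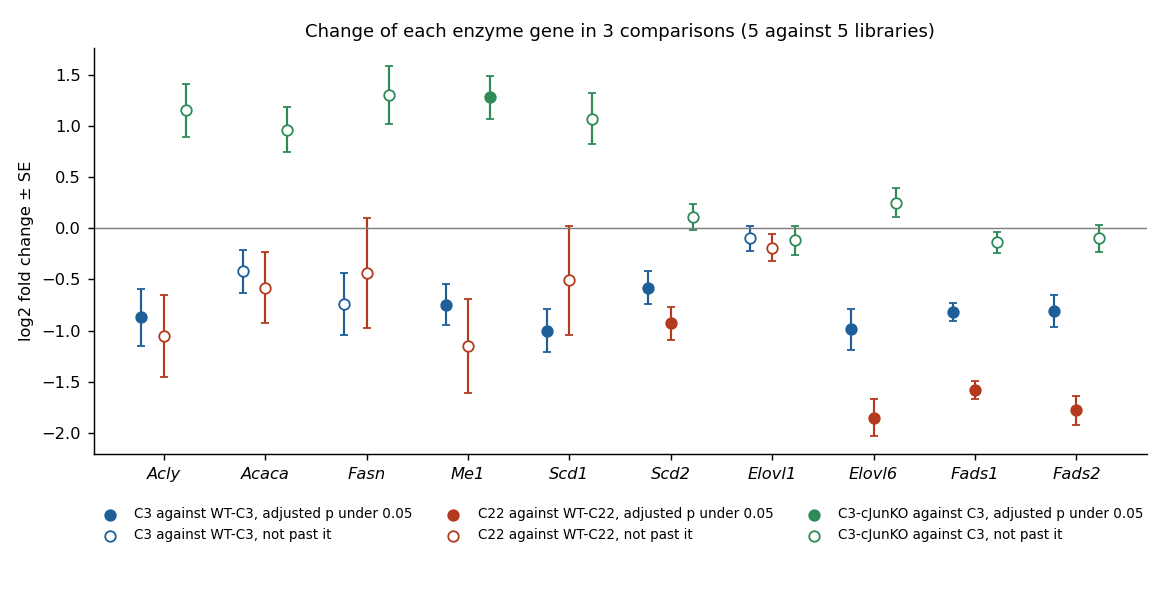
Points give the log2 fold change of each enzyme in C3 against WT-C3, in C22 against WT-C22 and in C3-cJunKO against C3, with bars of 1 SE and filled points for an adjusted p under 0.05. Fads1, Fads2 and Elovl6 have values from -0.99 to -0.81 in C3 and lower values, from -1.85 to -1.58, in C22, and Me1, at 1.28, is the filled point of the comparison with c-Jun removed.

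Next came the C3 mice without c-Jun in Schwann cells, a factor whose RNA, Jun, was higher in C3 than in WT-C3 nerves (log2 fold change 0.90, SE 0.10, adjusted p = 1.9e-04). Against C3, 1 enzyme, Me1, was higher in C3-cJunKO and 0 were lower, where 0.222% of all genes were higher and 0.329% lower. At an unadjusted p under 0.05, 5 enzymes were higher and 0 lower, beside 1096 of all 13993 genes in either direction. DESeq2 called those 5 enzymes, beside 250 of 13984 genes. The 5 were Acly, Acaca, Fasn, Me1 and Scd1, and the median of the 10 was a log2 fold change of 0.61, against 0.00 over all genes.

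Me1 stood at 454, 604, 558, 393 and 939 CPM in C3-cJunKO, above every C3 library. Its rise was 2.43-fold (log2 fold change 1.28, SE 0.21, adjusted p = 0.0185). The call of Me1 was lost without the C3-cJunKO library of 5 or 7 weeks (adjusted p = 0.0584 and 0.0524) or the C3 library of 5, 7 or 9 weeks (adjusted p = 0.0721, 0.0697 and 0.0604), and in 1 fit of all 25 libraries (adjusted p = 0.138). Libraries of the same age resembled each other in these groups. With age as a block 3 enzymes were higher, Me1 (1.22, adjusted p = 0.00429), Fasn (1.20, adjusted p = 0.0201) and Scd1 (1.01, adjusted p = 0.00188).

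Fasn stood at 1300, 2249, 2110, 1610 and 4109 CPM in C3-cJunKO, each above every C3 library, with a log2 fold change of 1.30 (SE 0.28, adjusted p = 0.0892). Scd1 stood at 2004, 2213, 2696, 2296 and 4802 CPM, also above every C3 library (log2 fold change 1.07, SE 0.25, adjusted p = 0.123). Both genes were highest in the library of 12 weeks. Acly stood at 421, 632, 585, 379 and 992 CPM (log2 fold change 1.15, adjusted p = 0.0973), and Acaca at 275, 523, 508, 377 and 655 CPM (log2 fold change 0.96, adjusted p = 0.122). Without the C3-cJunKO library of 3 weeks the adjusted p was 0.0357 for Fasn and 0.0234 for Acaca, and without the C3 library of 3 weeks it was 0.0468 for Acly.

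Beside these values, 0 of the 15 adipocyte markers were called between C3-cJunKO and C3 by edgeR, 3 were higher at an unadjusted p under 0.05, and DESeq2 called 2. Their median log2 fold change was 0.68. Among the enzymes Acly, Acaca, Fasn, Me1 and Scd1 ran from 0.96 to 1.30, and the rest from -0.14 to 0.25. With the markers as a covariate Me1 was again called (adjusted p = 0.0414). The log2 fold changes with it were 1.09 for Acly, 0.91 for Fasn, 0.73 for Scd1 and 0.71 for Acaca.

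The polyunsaturated desaturases lay near the level of C3. Fads1 stood at 315, 233, 239.9, 272 and 276 CPM in C3-cJunKO (log2 fold change -0.14, interval -0.34 to 0.06, adjusted p = 0.830), and Fads2 at 193, 126, 121, 124 and 121 CPM (log2 fold change -0.10, interval -0.37 to 0.16). Elovl6 stood at 326, 289, 283, 215 and 232 CPM, above C3 at each age by a log2 ratio of 0.21 to 0.40, and was not called (log2 fold change 0.25, adjusted p = 0.743). Scd2 ran from 3284 to 4961 CPM and Elovl1 from 321 to 519 CPM, with log2 fold changes of 0.11 and -0.12.

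Set beside WT-C3, the control that C3 shares, C3-cJunKO had 3 lower enzymes, Fads1, Fads2 and Elovl6, and 0 higher ones, where 11.3% of all genes were lower and 10.3% higher. At an unadjusted p under 0.05, 4 enzymes were lower and 0 higher, beside 4880 of all 13993 genes in either direction. DESeq2 called 4 enzymes, beside 3500 of 13985 genes. Fads1 fell 1.95-fold (log2 fold change -0.96, SE 0.10, adjusted p = 5.1e-05) without overlap, Fads2 fell 1.89-fold (-0.92, SE 0.18, adjusted p = 0.00408) and Elovl6 fell 1.67-fold (-0.74, SE 0.20, adjusted p = 0.0179). The synthesis genes lay on both sides of WT-C3 over the ages, lower at 3 weeks and higher at the other 4 ages. Their log2 fold changes were 0.55 for Fasn (interval -0.18 to 1.27), 0.54 for Acaca (0.05 to 1.02, adjusted p = 0.146), 0.53 for Me1 (0.01 to 1.04, adjusted p = 0.177) and 0.27 for Acly. Scd2 had a log2 fold change of -0.46 (adjusted p = 0.0948), which was called without the C3-cJunKO library of 3 weeks (adjusted p = 0.0273) or the WT-C3 library of 12 weeks (adjusted p = 0.0439). Without that C3-cJunKO library Acaca (0.68, adjusted p = 0.0478) and Elovl1 (-0.34, adjusted p = 0.0286) were called too.

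Between the control strains, 1 enzyme, Scd1, was higher in WT-C22 than in WT-C3 and 0 were lower, where 9.99% of all genes were higher and 11.7% lower. At an unadjusted p under 0.05 the counts were 1 and 0, beside 4792 of all 13993 genes in either direction. DESeq2 called 0 enzymes, beside 3485 of 13940 genes. Scd1 was 2.33-fold higher (log2 fold change 1.22, SE 0.40, adjusted p = 0.0478). The call was lost when any of 7 of the 10 libraries was left out, the WT-C3 libraries of 3, 5, 9 and 12 weeks and of WT-C22 those of 7, 9 and 12 weeks, with a Scd1 adjusted p of 0.0547 to 0.105, and without the last of these the log2 fold change of Scd1 was 0.67. Of the adipocyte markers 10 of 15 were higher in WT-C22, with a median log2 fold change of 1.20. With them as a covariate the log2 fold change of Scd1 was -0.65 and was not called (adjusted p = 0.387). Since the markers themselves differed between the strains, that fit separates marker level and strain only in part. Fads1 (0.11), Fads2 (-0.03), Scd2 (-0.04), Elovl6 (-0.18) and Elovl1 (-0.18) differed by less between the strains, and the largest interval among these, of Elovl6, ran from -0.63 to 0.27. Me1 had a log2 fold change of -0.08, and of -0.73 without the WT-C22 library of 12 weeks (adjusted p = 0.0363).

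Age was tested within each group with a natural spline, a smooth curve over the 5 ages, in 1 fit of all 25 libraries. The spline was called for 5 enzymes in WT-C22 (2.86% of all 15298 genes tested), for 1 in WT-C3 (0.693% of genes), for 2 in C3-cJunKO (3.38% of genes), for 0 in C3 (2.27% of genes) and for 0 in C22 (0.752% of genes). In edgeR at an unadjusted p under 0.05 it was 9, 7, 7, 4 and 5 enzymes in the same order. Of all 15298 genes it was 3061, 2167, 3486, 2977 and 2240. DESeq2's likelihood ratio test called 8, 4, 4, 1 and 1 enzymes. Among all genes it called 943 of 13221, 379 of 14408, 997 of 12925, 932 of 14704 and 493 of 13518. Fads2 was called in WT-C3 (adjusted p = 0.0139), in WT-C22 (adjusted p = 0.0159) and in C3-cJunKO (adjusted p = 0.0247). In WT-C22 the other 4 were Me1, Acly, Fasn and Acaca, all of which were highest in the library of 12 weeks, and in C3-cJunKO the other was Acly (adjusted p = 0.0401).

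The direction was read from a linear slope. Elovl6 fell in WT-C3 by 0.126 per week on the log2 scale (adjusted p = 0.00330), a change of -1.14 from 3 to 12 weeks, and in WT-C22 by 0.098 per week (adjusted p = 0.00710). Fads2 fell in WT-C3 by 0.097 (adjusted p = 0.0129) and in WT-C22 by 0.083 per week (adjusted p = 0.0154). In C3 the slopes were -0.071 for Elovl6 (SE 0.022, adjusted p = 0.0567) and -0.037 for Fads2 (SE 0.021), and in C22 -0.034 for Elovl6 (SE 0.022) and 0.002 for Fads2 (SE 0.021). Leaving out the library of 3 weeks took the calls of Elovl6 and Fads2 away in WT-C3 (adjusted p = 0.207 and 0.529) and in WT-C22 (adjusted p = 0.163 and 0.278). Leaving out 12 weeks took them away in WT-C3 (adjusted p = 0.113 for Elovl6 and 0.234 for Fads2) and that of Fads2 in WT-C22 (adjusted p = 0.0960).

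Fads1 had slopes of -0.006 per week in WT-C3 (SE 0.019) and -0.009 in WT-C22 (SE 0.019), the flattest of the 10 in the controls. Elovl1 fell in WT-C22 by 0.073 per week (adjusted p = 0.0198), without 3 or 12 weeks 0.060 (adjusted p = 0.237) or 0.072 (adjusted p = 0.316). Scd1 and Me1 rose in WT-C22, by 0.255 (adjusted p = 0.0148) and 0.206 per week (adjusted p = 0.0205). Without the library of 12 weeks the slopes were 0.185 for Scd1 (adjusted p = 0.448) and 0.002 for Me1 (adjusted p = 0.997), and without that of 3 weeks the adjusted p was 0.0876 for Scd1 and 0.0654 for Me1.

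The difference in age course between a model and its control was called for Acly in C22 against WT-C22 (adjusted p = 0.0491, where 0.0523% of all genes were called). That call of Acly was lost with a linear slope (adjusted p = 0.862), 2 degrees of freedom (adjusted p = 0.128), the log2 CPM filter (adjusted p = 0.0617) and the 10 libraries of C22 and WT-C22 alone (adjusted p = 0.0665). It was called for 0 enzymes in C3 against WT-C3 (0.0261% of genes) and for 0 in C3-cJunKO against C3 (0.0588% of genes). Of the 10 enzymes, edgeR gave an unadjusted p under 0.05 to 8, 4 and 4 in these comparisons, in the order given. Of all 15298 genes it gave one to 1740, 1342 and 1628. DESeq2 called 4, 0 and 0 enzymes, beside 192 of 12035, 64 of 15298 and 132 of 7587 genes. With 1 pool per age, a library that stands apart and a change at that age cannot be told apart.

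Levels were compared between genes as CPM per kilobase of the canonical transcript. In WT-C3, Scd2 came first at 921 ± 223 CPM per kb (SD, n = 5), followed by Scd1 at 523 ± 158 and Elovl1 at 233 ± 25.9. Fads1 (143 ± 13.1), Fasn (141 ± 69.9), Acly (110.2 ± 53.6), Me1 (96.0 ± 32.7), Fads2 (77.8 ± 20.6), Elovl6 (71.5 ± 22.0) and Acaca (33.1 ± 10.4) came next. Of these neighbours only Scd1 and Elovl1, and Elovl1 and Fads1, had libraries that did not overlap. The order rests on the length used. By the total length of all exons Scd2 and Scd1 again came first and Acaca last in WT-C3, while Elovl1, at 81.9 CPM per kb, moved from rank 3 to 5, Fasn from 5 to 3 and Acly, at 33.4 CPM per kb, from 6 to 9.

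In WT-C22 Scd1 came first at 1250 ± 941 CPM per kb, before Scd2 at 912 ± 189.6, and their libraries overlapped. In C3 the order began with Scd2 (626 ± 63.1), Scd1 (264 ± 58.5) and Elovl1, and in C3-cJunKO with Scd2, Scd1 and Fasn. In C22 it ended with Acaca (36.5), Fads2 (23.0 ± 1.32) and Elovl6 (18.3 ± 2.53), whereas Acaca was the lowest in WT-C3, WT-C22 and C3. By the length of all exons Fads2 (11.4 CPM per kb) came below Elovl6 (13.2) in C22.

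**Figure D4:**
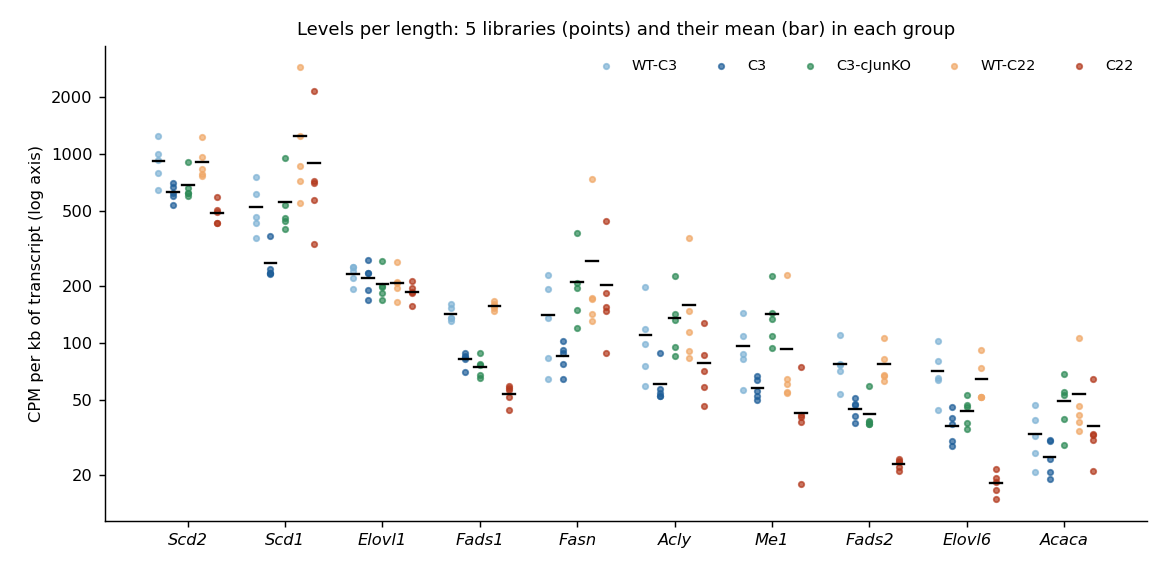
For each group the 10 enzymes are shown by their level in CPM per kb of transcript (log axis), 1 point per library with a bar at the mean of 5 libraries. Scd2 and Scd1 have the highest means in every group, of 921 and 523 CPM per kb in WT-C3, and Fads2 and Elovl6 have the lowest means in C22, at 23.0 and 18.3 CPM per kb.

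Among the regulators, Insig1, which keeps SREBP in the endoplasmic reticulum and is itself an SREBP target, stood at 449, 334, 310.2, 346 and 289 CPM in WT-C3 and at 179, 138, 164, 165 and 165 CPM in C3. In WT-C22 it stood at 359, 296, 217, 231 and 341 CPM and in C22 at 76.9, 98.6, 86.0, 189 and 98.5 CPM. Every library of each model lay below every library of its control, and in C22 the library of 9 weeks was the highest. Insig1 fell 2.15-fold in C3 (log2 fold change -1.11, SE 0.12, adjusted p = 1.3e-04) and 2.69-fold in C22 (-1.43, SE 0.24, adjusted p = 6.7e-04). In C3-cJunKO Insig1 was near the level of C3 (log2 fold change 0.02, interval -0.22 to 0.26) and below WT-C3 (-1.09, adjusted p = 2.3e-04).

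Srebf1, which encodes the SREBP of fatty acid synthesis, had log2 fold changes of 0.36 in C3 (adjusted p = 0.0834) and 0.53 in C22 (adjusted p = 0.0624). It was called without the C3 library of 5 weeks (adjusted p = 0.0420), without the WT-C22 library of 12 weeks (adjusted p = 0.00150) and without the C22 library of 3 weeks (adjusted p = 0.0417). Of the other settings, 2 of 8 called Srebf1 higher in C3, library size only (adjusted p = 0.0445) and the adipocyte covariate (adjusted p = 0.0244), and 5 of 9 in C22, with adjusted p values of 0.00300 without both outlying libraries, 0.0117 with that covariate, 0.0144 with age as a block, 0.0206 with library size only and 0.0276 with DESeq2. In C3-cJunKO Srebf1 was higher than in WT-C3 (0.89, SE 0.21, adjusted p = 0.00987) and Srebf2 lower (-0.34, SE 0.10, adjusted p = 0.0280). That call of Srebf2 was lost when any of 7 of the 10 libraries was left out. Srebf2, the SREBP of sterol synthesis, fell in C22 (-0.51, SE 0.08, adjusted p = 3.9e-04) and not in C3 (-0.08, interval -0.25 to 0.08), and these changes differed (-0.45, adjusted p = 0.0134, and 0.0632 without a filter on low counts). Nr1h3, the sterol-sensing receptor LXR alpha, fell in C22 (-0.54, adjusted p = 0.0154, and 0.0921 with library size only) and had a log2 fold change of 0.04 in C3. Thrsp, a lipogenic factor, had log2 fold changes of -0.71 in C3 (adjusted p = 0.106), -0.45 in C22 (adjusted p = 0.506) and 1.24 in C3-cJunKO against C3 (adjusted p = 0.221). Mlxipl, the carbohydrate-responsive factor ChREBP, had log2 fold changes of 0.00 and -0.12 in the models. Of the 18 genes on the list of regulators, 1 was higher and 2 lower in C3 and 2 higher and 8 lower in C22. Among all genes 12.5% were higher and 11.4% lower in C3, and 21.9% higher and 20.5% lower in C22.

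Genes around the 10 enzymes were counted by list. Beside these counts, 11.4% of all genes were lower and 12.5% higher in C3, and 20.5% lower and 21.9% higher in C22. For C3-cJunKO 0.329% of all genes were lower and 0.222% higher against C3, and 11.3% lower and 10.3% higher against WT-C3. Of 15 tested genes of other elongation and desaturation enzymes, 11 were lower and 0 higher in C3, with a median of -0.51, and 10 were lower and 0 higher in C22, with the same median. Elovl4, an elongase of very long chains, fell most, with log2 fold changes of -2.33 in C3 (adjusted p = 3.8e-05) and -4.50 in C22 (adjusted p = 7.4e-09), and the difference was -2.18. Elovl7 (-0.72 and -1.10) and Hsd17b12, a reductase of the elongation cycle (-0.77 and -1.05), fell in both models. Fa2h, which hydroxylates fatty acids for myelin sphingolipids, fell in both as well (-0.56, adjusted p = 0.0112, and -1.28, adjusted p = 1.8e-04).

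Of 12 tested genes of other synthesis enzymes, 5 were lower and 0 higher in C3 (median -0.26) and 6 lower and 1 higher in C22 (median -0.28). Acss2, which makes acetyl-CoA from acetate, fell in both (-1.10 and -1.46), and so did G6pdx, which makes NADPH (-0.45 and -0.75). In C3-cJunKO against C3, Pgd, another source of NADPH, was the gene of this list that rose (0.50, adjusted p = 0.0352), where 6 were higher at an unadjusted p under 0.05 and DESeq2 called 2. Against WT-C3, C3-cJunKO had 8 lower genes of elongation and desaturation (median -0.38), with Elovl4 at -2.36, and 1 higher gene of synthesis, Pgd (0.48).

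Of 18 tested genes of mitochondrial fatty acid oxidation, which breaks chains down, 2 were higher and 1 lower in C3 (median -0.14), and 0 were higher and 1, Eci2, lower in C22 (median -0.02), where 1 was higher at an unadjusted p under 0.05 and DESeq2 called 1. Of 8 tested genes of fatty acid uptake and binding, 5 were lower in C3, among them Dbi (-0.88), Lpl (-0.81), Cd36 (-0.78) and Fabp5 (-0.68), and in C22 2 were lower and 1 higher. Of 10 acyl-CoA synthetase genes 1 was higher and 2 lower in C3 and 2 higher and 2 lower in C22, with Acsl3 lower in both (-0.79 and -1.62) and Slc27a6 higher in both (1.84 and 1.78).

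**Figure D5:**
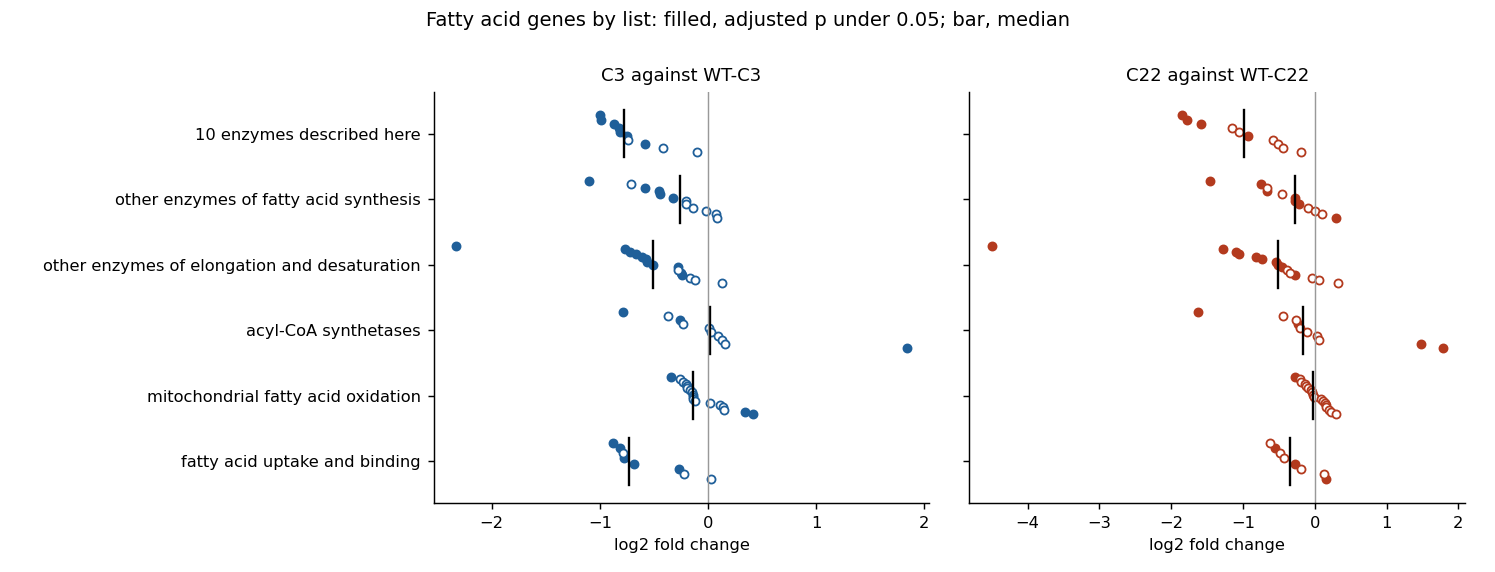
The log2 fold changes of 6 lists of fatty acid genes are shown for C3 against WT-C3 and C22 against WT-C22, with filled points for an adjusted p under 0.05 and a bar at the median of each list. The medians of the 10 enzymes are -0.78 and -0.99 and those of the oxidation genes -0.14 and -0.02.

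Some markers of the cells of the nerve were called as well, and their part in the falls of the enzymes was not tested. Among all genes 11.4% were lower and 12.5% higher in C3, and 20.5% lower and 21.9% higher in C22. Some of the marker counts lie near these shares. Of 12 markers of myelinating Schwann cells, 3 were lower and 2 higher in C3 and 6 lower and 2 higher in C22, with Drp2, of the Schwann cell membrane, at -0.46 and -2.48. Their summed level ran from 60493 to 103600 CPM in WT-C3, from 41198 to 62209 in C3, from 49832 to 100119 in WT-C22, from 27601 to 41562 in C22 and from 38662 to 71096 in C3-cJunKO. Perineurial markers were lower for 3 of 6 in C3 and 5 of 6 in C22, and endothelial and pericyte markers for 2 of 9 and 6 of 9. Of 12 macrophage markers, 2 were higher and 0 lower in C3 and 3 higher and 1 lower in C22. Fibroblast markers gave 0 calls of 8 in C3 by edgeR (1 at an unadjusted p under 0.05, 1 by DESeq2) and 1 lower in C22. Skeletal muscle markers gave 0 of 8 in either model (1 at an unadjusted p under 0.05 in each, 1 and 0 by DESeq2), and blood markers 0 of 4 (3 and 0 at an unadjusted p under 0.05, 0 by DESeq2).

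The genes whose levels over the 25 libraries ran closest to each enzyme were found by the mean absolute difference of centred log2 CPM among 11725 other genes. For Elovl6 the nearest was Fads2 (0.166), where the median over genes was 0.646, and for Acly it was Acaca (0.231, median 0.607). For Fasn they were Thrsp (0.225), Pcx (0.232) and Acaca (0.26), against a median of 0.661. For Scd1 they were Pygl (0.219), Dgat2 (0.223) and Lpl (0.248), against a median of 0.72. For Fads1 the nearest was Rtn1 (0.097), for Fads2 Rap1gds1 (0.126), for Scd2 Aif1l (0.113), for Elovl1 Desi1 (0.075), for Me1 Sorl1 (0.233) and for Acaca Tmem120b (0.221).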

How the data were processed

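Raw fragment counts per Ensembl gene, deposited by the authors without normalization, were used for 25 libraries. Per the paper's methods and the submitters' processing notes, the authors made poly(A) libraries with a directional kit that keeps the strand, checked reads with FastQC 0.11.9, trimmed them with cutadapt 2.10, aligned them with STAR 2.7.5a to GRCm39, to which the human transgene locus was joined, collapsed duplicates with UMI-tools 1.1.1 and counted with HTSeq 0.12.4. Per library 8.12% to 12.11% of fragments lay on no gene, and these summary lines were left out. Scd1 and Scd2, and Fads1 and Fads2, are related genes, and fragments that aligned to several places (2.76% to 3.93%) were not counted.

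A gene was kept where its log2 CPM exceeded 1 in 7 or more libraries (25%), which left 13993. The quasi-likelihood test of edgeR 4.0.16 in R 4.3.3 was used on TMM-scaled counts with group as its only term, on the libraries of each comparison, with Benjamini-Hochberg adjustment over all genes and a threshold of 0.05. Intervals are 95% normal intervals from the SE. Age was fitted with a natural spline of 3 degrees of freedom (splines 4.3.3) on 15298 genes kept by filterByExpr. DESeq2 1.42.0, other scalings and filters, age as a block, the adipocyte markers as a covariate and leaving out each library were alternatives. Comparisons share libraries, WT-C3 and C3 among them. CPM per kb used the length of the canonical transcript, where exon length had been planned. Same-age libraries counted as pairs where their deviations from group means correlated above 0.1 at each age. This held for C3-cJunKO and C3 (0.439, 0.123, 0.347, 0.265 and 0.616). All 10 enzymes were named in every comparison, with 6 regulators, up to 4 called genes with a mean of at least 5 CPM from each list, the 3 genes nearest to each enzyme, and PMP22, Pmp22 and Jun as checks. The enzymes and lists were chosen with earlier results of these data known. The steps were tested on simulated data. Promoters came from RefSeq. Results on some marker genes are not reported here.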

Additional observations from a re-analysis of the deposited data

Results flagged for a closer look

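In a group of 5 libraries, a value was singled out when its gap to the nearest other library took up more of the group's range than expected in about 1 of 20 groups by chance. Of 50 groups, 12 had such a library, where 2.5 would be expected by chance if the groups were independent. They are not, since the same library can stand apart for several genes, and all 12 values were at the high end. The excess is therefore a description and not a test. The WT-C22 library of 12 weeks was the high value for Acly (1586 CPM, the next library 648), Acaca (1015 CPM, the next 442), Fasn (7967 CPM, the next 1875) and Me1 (959 CPM, the next 270.2). The C22 library of 9 weeks was the high value for Acaca (616 CPM, the next 316), Fasn (4772 CPM, the next 1978) and Scd1 (10756 CPM, the next 3620). Both libraries also had the highest summed adipocyte markers of their groups, 12155 and 10728 CPM, and the part of fat in these values was not tested.

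Scd1 stood out at 12 weeks in C3 (1848 CPM, the next 1240) and in C3-cJunKO (4802 CPM, the next 2696), where the adipocyte marker sums were again the highest of each group, 5693 and 8199 CPM. At 3 weeks Acly stood out in C3 (392 CPM, the next 253) and Scd2 (4961 CPM, the next 3625) and Fads2 (193 CPM, the next 126) in C3-cJunKO.

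The change in C22 differed from that in C3 by a test of the difference for Fads2 (-0.99 on the log2 scale), Elovl6 (-0.88) and Fads1 (-0.78), each a larger fall in C22. The age course of Acly differed between C22 and WT-C22 (adjusted p = 0.0491 by edgeR), a comparison that holds both outlying libraries. The call was lost in 4 of 6 other settings, with an adjusted p for Acly of 0.0617 to 0.862.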

How the results depend on the processing

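For the 10 enzymes, the count of lower ones in C3 was 7, and 4 with all 25 libraries in 1 fit. In C22 it was 4, and 7 with the adipocyte covariate or, chosen after seeing the data, without both the 9-week C22 and the 12-week WT-C22 library, and it ran from 4 to 7 as each library was left out. In C3-cJunKO against C3 it was 1, and 5 with DESeq2, 5 without a filter on low counts, 3 with age as a replicate block and 0 with all 25 libraries in 1 fit, and from 0 to 3 as each library was left out. The count of all genes there was 77, and 250 with DESeq2, 134 without a filter, 139 with all 25 libraries, 273 with the block and 201 with the adipocyte covariate, and from 43 to 98 as each library was left out. Against WT-C3, C3-cJunKO had 3 enzymes, and from 3 to 6 as each library was left out. Between the control strains the count was 1, and 0 with library size only, DESeq2, the block or the adipocyte covariate, and from 0 to 1 as each library was left out. With that covariate the count of genes between the strains went from 3033 to 1272. The log2 fold changes turned to -0.65 for Scd1 (adjusted p = 0.387) and -0.23 for Mlxipl (adjusted p = 0.676), neither of them called. The age block, where libraries were not shown to be pairs, left 7, 4, 3 and 4 enzymes in C3, C22, the difference between them and C3-cJunKO against WT-C3.

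For age, the count of genes in C3-cJunKO was 517, and 913 with a linear slope and 997 with DESeq2, and of enzymes 2, and 0 with the slope, 1 with 2 degrees of freedom, 5 with the model and its control alone (10 libraries) and 4 with DESeq2. In C3 it was 347 genes, and 912 (slope), 63 (10 libraries) and 932 (DESeq2), and 0 enzymes, and 1 (DESeq2). In WT-C3 it was 106 genes, and 401 (slope), 244 (2 degrees of freedom), 19 (10 libraries) and 379 (DESeq2), and 1 enzyme, and 2 (slope), 2 (2 degrees of freedom), 0 (10 libraries) and 4 (DESeq2). In C22 it was 115 genes, and 66 (2 degrees of freedom), 53 (log2 CPM filter), 194 (10 libraries) and 493 (DESeq2), and 0 enzymes, and 1 (10 libraries) and 1 (DESeq2). In WT-C22 it was 437 genes, and 1188 (slope), 819 (2 degrees of freedom) and 943 (DESeq2), and 5 enzymes, and 8 (DESeq2). The difference in age course gave 4 genes in C3, and 2 (2 degrees of freedom), 2 (filter), 1 (10 libraries) and 64 (DESeq2). In C22 it gave 8 genes, and 71 (slope), 26 (2 degrees of freedom), 0 (filter), 0 (10 libraries) and 192 (DESeq2), and 1 enzyme, and 0 (slope, 2 degrees of freedom, filter and 10 libraries) and 4 (DESeq2). In C3-cJunKO against C3 it gave 9 genes, and 1 (slope), 2 (2 degrees of freedom), 0 (10 libraries) and 132 (DESeq2). At the 0s, edgeR gave an unadjusted p under 0.05 to 1633 (filter) and 1965 (10 libraries) genes in C22 and to 1443 in C3-cJunKO. The causes were not tested. As each library was left out, only the slope was refitted, since a spline over 4 ages leaves no spread within a group, and the slope counts are given with the results they touch.

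With 1 pool per age and group, the spread between animals at an age was not measured, and the shallowest library, C3 at 9 weeks with 2140142 counts, has the largest counting error.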
